A study of Mus musculus with 8 samples.

Results

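The 8 genes described here mark the muscular wall of blood vessels: Myh11, Acta2, Tagln and Cnn1 belong to the contractile apparatus of smooth muscle cells, and Pdgfrb, Cspg4, Mcam and Rgs5 mark pericytes, the mural cells of capillaries. They were chosen by gene name, and all 8 were found among the 54091 genes of the deposited expression table. The RNA came from the white quadriceps, a fast glycolytic leg muscle, of chow-fed male mice (Purina) aged 11 to 14 weeks and sampled in the morning. 4 mice carried a CKM Cre that knocks out Acot2, a mitochondrial acyl-CoA thioesterase, in muscle, and the 4 mice they were set against were Loxp/Loxp, a genotype that names no Cre. The groups therefore differed in the recombinase as well as in Acot2, and the Ckm (muscle creatine kinase) promoter drives the recombinase in striated muscle rather than in the vessel wall. The comparison asks which transcripts of a glycolytic muscle differ once Acot2 is lost from its fibres.

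Mural cells wrap the endothelial tube. Smooth muscle cells ring arteries and arterioles and set vessel diameter by contracting, while pericytes sit on capillaries within the basement membrane and are recruited by platelet-derived growth factor B (PDGF-B) released from endothelium. The smooth muscle contractile genes are switched on together by serum response factor and its partner myocardin. Serum response factor binds a short DNA element called the CArG box. A piece of muscle holds both kinds of mural cell as a small minority beside its fibres.

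The recovered sequencing depth was 30415428 to 48834283 reads per library, with the lowest and the highest total both in CKM Cre libraries. Acot2 had 42.8 to 53.7 normalized reads in CKM Cre libraries, against 148.8 to 251 in Loxp/Loxp libraries. The groups did not overlap, so the targeted gene followed its label (limma adjusted p = 0.000962). A normalized read is a read after division by 1 factor per library. Fold changes are differences of log2(normalized reads + 1), CKM Cre minus Loxp/Loxp; the added 1 makes differences of genes with low reads look smaller. No library failed to show the vessel-wall markers: each of the 8 genes had reads in each library, and all 8 passed the filter of at least 10 normalized reads in at least 4 libraries.

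Vessel-wall gene levels were not called different between the genotypes, but the contractile genes varied widely among the CKM Cre mice. The 4 contractile genes together had 2071, 2714, 3116 and 3772 normalized reads in CKM Cre replicates 1 to 4, against 3784, 3852, 3345 and 2947 in Loxp/Loxp replicates 1 to 4. CKM Cre replicates 1 and 2 lay below every Loxp/Loxp library, and CKM Cre replicates 3 and 4 lay inside the Loxp/Loxp range, so the groups overlapped. Each CKM Cre mouse had a lower sum than the Loxp/Loxp mouse with the adjacent animal number. The labels do not say what adjacency means. Myh11, Tagln and Cnn1 were lower in CKM Cre in 4 of 4 such pairs, as 5.7% of all genes were, and Acta2 in 3 of 4. These genes varied together over the libraries, so their counts are not independent of each other. The mean sum was 2918 ± 714 normalized reads in CKM Cre and 3482 ± 422 in Loxp/Loxp libraries (SD, n = 4 each). The 4 pericyte genes together had 12395, 16753, 17499 and 16456 normalized reads in CKM Cre replicates 1 to 4, against 16307, 14371, 14326 and 14040.5 in Loxp/Loxp replicates 1 to 4. Here CKM Cre replicate 1 was the lowest of all libraries and the other 3 CKM Cre libraries were the highest. Rgs5 alone made up 78.1% to 84.6% of the pericyte sum in single libraries. In bulk tissue, fewer mural cells and less RNA per mural cell cannot be told apart.

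Of the 8 genes, 0 passed the limma test at an adjusted p under 0.05, against 0.0147% of the 13638 genes tested in either direction and 0.00733% in the lower direction. All 8 had a limma adjusted p = 0.9995. At an unadjusted p under 0.05, 1 of the 8 passed (Cnn1), against 2.91% of all genes in either direction and 1.72% in the lower direction. In a limma fit with adjacent animal numbers as a block, 4 of the 8 did, all contractile, against 3.76% of all genes. None passed there after adjustment, and the labels do not say whether the mice were paired. The 4 contractile genes varied together over the libraries (Pearson r 0.78 to 0.93), so they are not 4 independent results. None of the 8 genes had groups that did not overlap, which 1.92% of all genes had. The fold change was below 0 for 6 of the 8 genes, against 48.3% of all genes. All 4 contractile genes were among these, with a median of -0.31 on the log2 scale (-0.17 without CKM Cre replicate 1). The pericyte genes were split with 2 below 0 and a median of -0.014, which ran from -0.078 without CKM Cre replicate 4 to 0.068 without CKM Cre replicate 1. The median over all genes tested was 0.0049.

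**Figure D1:**
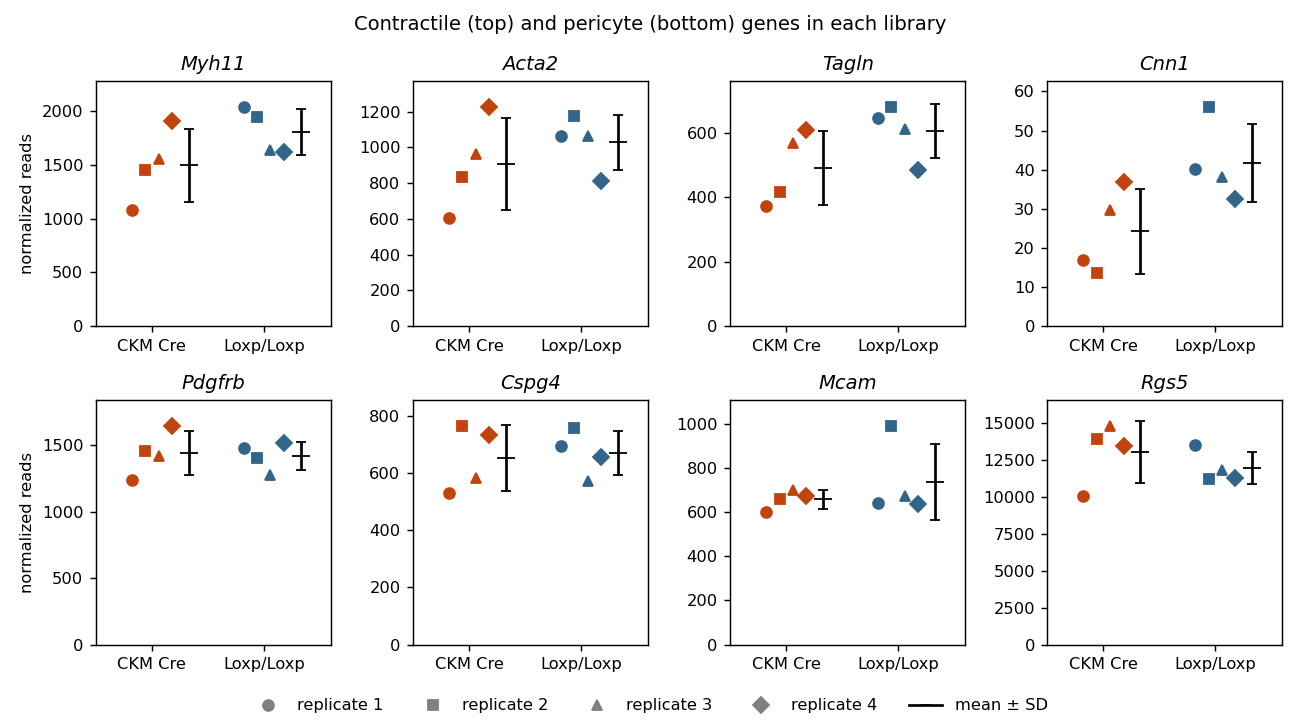
Normalized reads of each gene (vertical axes, linear and starting at 0) in the 4 CKM Cre libraries (orange, left) and the 4 Loxp/Loxp libraries (blue, right); the marker shape gives the replicate and the black bar the mean ± SD. Contractile genes are in the top row, where CKM Cre replicates 1 and 2 sit low and replicate 4 is the highest of the CKM Cre libraries, though of all libraries only for Acta2. Pericyte genes are in the bottom row, where the groups lie over each other.

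Myh11 encodes the smooth muscle myosin heavy chain, the motor of the contractile apparatus. The gene (NCBI gene 17880) lies on the minus strand of GRCm38 at chr16:14194535-14291372. It had 1076, 1452, 1555 and 1902 normalized reads in CKM Cre replicates 1 to 4, against 2035, 1941, 1635 and 1617 in Loxp/Loxp replicates 1 to 4. CKM Cre replicates 1, 2 and 3 were below the lowest Loxp/Loxp library, and replicate 4 was inside the Loxp/Loxp range. The means were 1496 ± 340.2 normalized reads in CKM Cre and 1807 ± 212 in Loxp/Loxp libraries (SD, n = 4 each), a log2 difference of -0.29 (SE 0.15, 95% confidence interval -0.62 to 0.03, limma adjusted p = 0.9995). The interval reaches a CKM Cre level of 0.651 times the Loxp/Loxp level at its lower end. Without CKM Cre replicate 1 the difference was -0.14. In the annotation, 0.340% of the 50-base stretches of Myh11 transcripts also occur in the nonmuscle myosins Myh9 and Myh10.

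Acta2 encodes smooth muscle alpha-actin, the thin filament partner of Myh11, and lies on the minus strand at chr19:34241090-34255590. It had 604, 833, 963 and 1224 normalized reads in CKM Cre replicates 1 to 4, against 1064, 1176, 1061 and 812 in Loxp/Loxp replicates 1 to 4. The lowest and the highest level of all 8 libraries were both in CKM Cre mice, a 2.03-fold range. The means were 906 ± 259 in CKM Cre and 1028 ± 154 in Loxp/Loxp libraries (SD, n = 4 each), a log2 difference of -0.22 (SE 0.19, 95% confidence interval -0.62 to 0.19). Without CKM Cre replicate 1 it was -0.036. Acta2 transcripts share 7 of 2146 stretches of 50 bases with the cytoplasmic actin Actg1 and actin pseudogenes, and none with the skeletal actin Acta1, which is the far more abundant actin of this tissue.

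Of the 5 genes with promoter sequence at hand, only Acta2 held a CArG-like element. Its 2 boxes are shown with the 1 full match in skeletal Acta1 for comparison. RefSeq sequence (GRCm38.p6) from 250 bases before to 50 bases after the start was at hand for 5 of the 8 genes: Acta2, Cnn1, Cspg4, Mcam and Rgs5. Myh11, Tagln and Pdgfrb had none at hand and were not searched. Capitals mark the 10 letters of the box, on the strand of the gene. The first Acta2 box lies 84 to 75 bases and the second 34 to 25 bases before the RefSeq start, and both are 1 letter off the CArG box. The Acta2 coordinates given above are from GENCODE and start further upstream, so both boxes lie inside them. The Acta1 window held 3 boxes by the same rule, 2 of them 1 letter off at 205 to 196 and 154 to 145 bases before its start. The one printed lies 73 to 64 bases before the start and matches in full.
Acta2, chr19:34255438-34255467, minus strand: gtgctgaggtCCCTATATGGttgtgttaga
Acta2, chr19:34255388-34255417, minus strand: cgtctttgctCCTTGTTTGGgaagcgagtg
Acta1, chr8:123894829-123894858, minus strand: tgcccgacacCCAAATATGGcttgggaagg
A full CArG box was found in 1.63% of the 32851 promoter windows of this length and a box at most 1 letter off in 9.98% of them, with both strands searched. Acta2 also held 1 CATTCC, the MCAT element that TEAD factors bind, found in 14.7% of windows, and 1 TGGGAA, the core that the Notch partner RBPJ binds, found in 25.6%, and this TGGGAA overlaps the second box. None of these letters were found in the windows of Cnn1, Cspg4, Mcam and Rgs5. The matches are a description of the letters, and these data do not measure binding.

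Tagln encodes transgelin (SM22-alpha), an actin-binding protein of smooth muscle, and lies on the minus strand at chr9:45929619-45936058. It had 374, 416, 569 and 608 normalized reads in CKM Cre replicates 1 to 4, against 645, 679, 610.3 and 486 in Loxp/Loxp replicates 1 to 4. CKM Cre replicates 1 and 2 were the lowest 2 libraries, and 3 Loxp/Loxp libraries lay above the highest CKM Cre library. The means were 492 ± 114 in CKM Cre and 605 ± 84.3 in Loxp/Loxp libraries (SD, n = 4 each), a log2 difference of -0.32 (SE 0.16, 95% confidence interval -0.67 to 0.04, limma adjusted p = 0.9995). Without CKM Cre replicate 1 it was -0.20. Of the Tagln exon bases, 1241 (62.4%) lie opposite the antisense gene Gm48529 and 108 opposite Pcsk7. The library kit keeps strand, but no source used here says whether the counting did. Gm48529 held 8 to 16 reads per library and Pcsk7 313 to 619.

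Cnn1 encodes calponin 1, which binds actin and restrains the myosin motor in differentiated smooth muscle, and lies on the plus strand at chr9:22099216-22109630. It had 16.8, 13.4, 29.7 and 36.8 normalized reads in CKM Cre replicates 1 to 4, against 40.2, 56.0, 38.2 and 32.5 in Loxp/Loxp replicates 1 to 4. CKM Cre replicates 1, 2 and 3 lay below the lowest Loxp/Loxp library, and CKM Cre replicate 4 lay above Loxp/Loxp replicate 4, so the groups overlapped by a single library on each side. The means were 24.2 ± 10.9 in CKM Cre and 41.7 ± 10.0 in Loxp/Loxp libraries (SD, n = 4 each). The CKM Cre mean was 0.580 of the Loxp/Loxp mean. The log2 difference of -0.84 (SE 0.34, 95% confidence interval -1.58 to -0.10) had an interval that left out 0, but it did not pass after adjustment over all genes (limma adjusted p = 0.9995). Cnn1 rests on 11 to 52 reads per library. CKM Cre replicate 2 with 11 reads has an exact 95% Poisson interval of 6.71 to 24.1 normalized reads, against 41.5 to 73.8 for Loxp/Loxp replicate 2 with 50 reads, which covers counting error alone. These are the lowest and the highest library. The intervals of CKM Cre replicates 3 and 4 (19.4 to 43.5 and 27.5 to 48.3) overlapped those of all Loxp/Loxp libraries. Those of CKM Cre replicates 1 and 2 overlapped that of Loxp/Loxp replicate 4 (21.9 to 46.3). Counting error has an SD of 0.25 on the log2 scale, against a within-group SD of 0.51.

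Most of the 8 genes varied more within genotypes than genes of a like level (mean within 0.5 on the log2 scale). The within-group SD on the log2 scale was larger than that of 96.6% of such genes for Myh11 (SD 0.27) and of 97.5% for Acta2 (SD 0.34). It was larger than that of 93.9% for Tagln (SD 0.28), and than that of 64.8% for Cnn1 (SD 0.51). Of the pericyte genes, Mcam exceeded 91.4%, Cspg4 90.3%, Rgs5 85.0% and Pdgfrb 75.4% of such genes.

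Pdgfrb encodes the PDGF-B receptor through which pericytes are recruited to capillaries, and lies on the plus strand at chr18:61045150-61085061. It had 1241, 1455, 1419 and 1646 normalized reads in CKM Cre replicates 1 to 4, against 1481, 1406, 1273 and 1514 in Loxp/Loxp replicates 1 to 4. The lowest and the highest library were both CKM Cre, and the means of 1440.3 ± 166 in CKM Cre and 1419 ± 107 in Loxp/Loxp libraries (SD, n = 4 each) lay within the spread. The log2 difference was 0.018 (SE 0.090, 95% confidence interval -0.18 to 0.21), or 0.883 to 1.16 times the Loxp/Loxp level.

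Cspg4 encodes the NG2 proteoglycan on the pericyte surface, and lies on the plus strand at chr9:56865033-56899870. It had 530.3, 764, 580.1 and 733 normalized reads in CKM Cre replicates 1 to 4, against 694, 755, 570.2 and 654 in Loxp/Loxp replicates 1 to 4. The groups overlapped over nearly their whole range, with means of 652 ± 114 in CKM Cre and 668 ± 77.6 in Loxp/Loxp libraries (SD, n = 4 each). The log2 difference was -0.045 (SE 0.13, 95% confidence interval -0.33 to 0.24).

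Mcam encodes the adhesion molecule CD146, which endothelial cells carry as well as pericytes, and lies on the plus strand at chr9:44134469-44142727. It had 600.2, 660.2, 701 and 671 normalized reads in CKM Cre replicates 1 to 4, against 641, 992, 673 and 637 in Loxp/Loxp replicates 1 to 4. Loxp/Loxp replicate 2 stood apart above all others, and the remaining 7 libraries lay between 600.2 and 701. The means were 658 ± 42.4 in CKM Cre and 736 ± 171 in Loxp/Loxp libraries (SD, n = 4 each). The log2 difference was -0.14 (SE 0.13, 95% confidence interval -0.43 to 0.15), and without Loxp/Loxp replicate 2 it was 0.015.

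Rgs5 encodes a regulator that shortens G protein signalling and is a marker of pericytes, and lies on the plus strand at chr1:169655501-169695813. It had 10024, 13874, 14799 and 13405 normalized reads in CKM Cre replicates 1 to 4, against 13491, 11218, 11809 and 11235 in Loxp/Loxp replicates 1 to 4. CKM Cre replicate 1 was the lowest library, and 2 of the other CKM Cre libraries were above the highest Loxp/Loxp library. The means were 13025 ± 2083 in CKM Cre and 11938 ± 1071 in Loxp/Loxp libraries (SD, n = 4 each). The log2 difference was 0.11 (SE 0.11, 95% confidence interval -0.13 to 0.36). It had the highest level of the 8 genes.

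Per kilobase of annotated exon, the level of Rgs5 was 2865 ± 458 normalized reads in CKM Cre and 2626 ± 236 in Loxp/Loxp libraries (SD, n = 4 each). Acta2 followed at 413 ± 118 in CKM Cre and 468 ± 70.1 in Loxp/Loxp libraries. Next came Pdgfrb with 263 ± 30.3 in CKM Cre and 259 ± 19.5 in Loxp/Loxp libraries. Tagln had 247 ± 57.5 in CKM Cre and 304 ± 42.4 in Loxp/Loxp libraries. Myh11 had 197 ± 44.8 in CKM Cre and 238 ± 28.0 in Loxp/Loxp libraries, and Mcam had 196 ± 12.6 in CKM Cre and 219.6 ± 51.1 in Loxp/Loxp libraries. From Pdgfrb down to Mcam, no 2 neighbours in this order lay further apart than the larger of their SDs in CKM Cre libraries, and Tagln stood before Pdgfrb in Loxp/Loxp libraries. Cspg4 was lower at 54.6 ± 9.57 in CKM Cre and 56.0 ± 6.51 in Loxp/Loxp libraries. Cnn1 had the lowest level, at 8.85 ± 4.00 in CKM Cre and 15.2 ± 3.67 in Loxp/Loxp libraries.

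**Figure D2:**
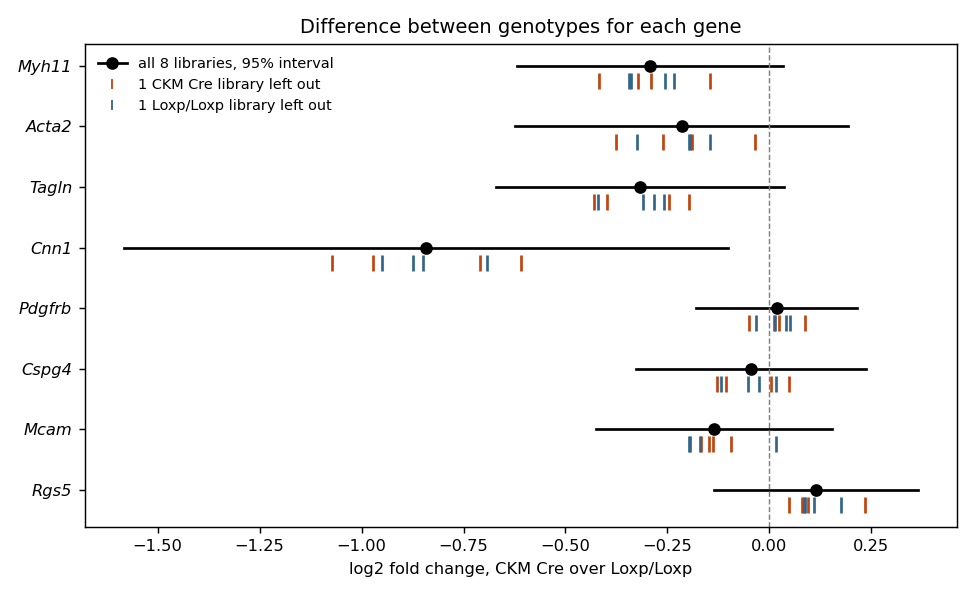
Log2 fold change, CKM Cre minus Loxp/Loxp, of each gene, with its 95% confidence interval from limma as the bar. Cnn1 has the largest difference at -0.84, and the intervals of the other 7 genes include 0.

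The contractile genes were high or low in the same libraries, with less of such a shared pattern among the pericyte genes. Each gene's deviation from its mean over the 8 libraries was averaged over the 4 contractile genes. That mean was -0.64, -0.46, 0.0040 and 0.26 on the log2 scale in CKM Cre replicates 1 to 4, against 0.29, 0.44, 0.17 and -0.069 in Loxp/Loxp replicates 1 to 4. Over the 4 pericyte genes it was -0.25, 0.089, 0.026 and 0.11 in CKM Cre libraries, against 0.040, 0.14, -0.12 and -0.042 in Loxp/Loxp libraries. CKM Cre replicate 1 was the lowest library for 7 of the 8 genes, and CKM Cre replicate 2 was low for the contractile genes, most of all for Cnn1 at -1.12, but not for the pericyte mean. The contractile mean minus the pericyte mean was -0.39, -0.55, -0.022 and 0.15 in CKM Cre libraries, against 0.25, 0.30, 0.29 and -0.027 in Loxp/Loxp libraries. The groups overlapped here too, with 3 Loxp/Loxp libraries above the highest CKM Cre library.

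**Figure D3:**
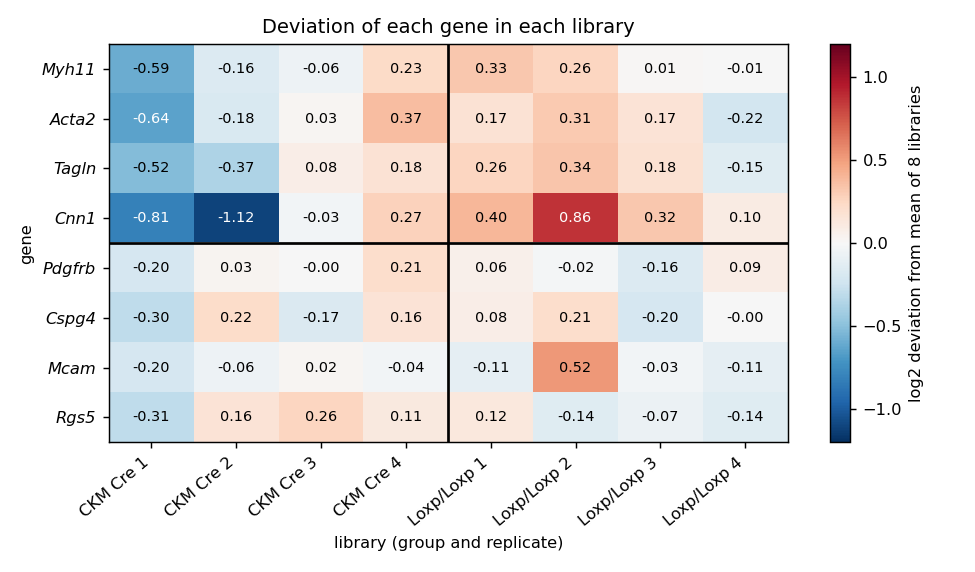
Deviation of each gene (rows) in each library (columns) from its mean over the 8 libraries, on the log2 scale, red above and blue below. CKM Cre replicates 1 and 2 are blue for the contractile genes, with Cnn1 the lowest in replicate 2, and the pericyte genes are pale in most libraries.

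Across the 8 libraries, the Pearson r between contractile genes was 0.78 to 0.93 over their 6 pairs, with a median of 0.91. With the group means removed it was 0.71 to 0.94, and without the 2 most distant libraries it was 0.77 to 0.88. For the 6 pairs of pericyte genes r was -0.057 to 0.72, with a median of 0.41. Pairs of a contractile and a pericyte gene, of which there were 16, had r of -0.024 to 0.65, with a median of 0.47. With the group means removed, pericyte pairs had 0.054 to 0.74 and mixed pairs 0.18 to 0.80, which both reach into the contractile range. Without the 2 most distant libraries, pericyte pairs had -0.32 to 0.56 and mixed pairs -0.53 to 0.79. These values are descriptions over 8 libraries of 2 genotypes, in which the genes of a pair share each library's RNA and scaling.

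**Figure D4:**
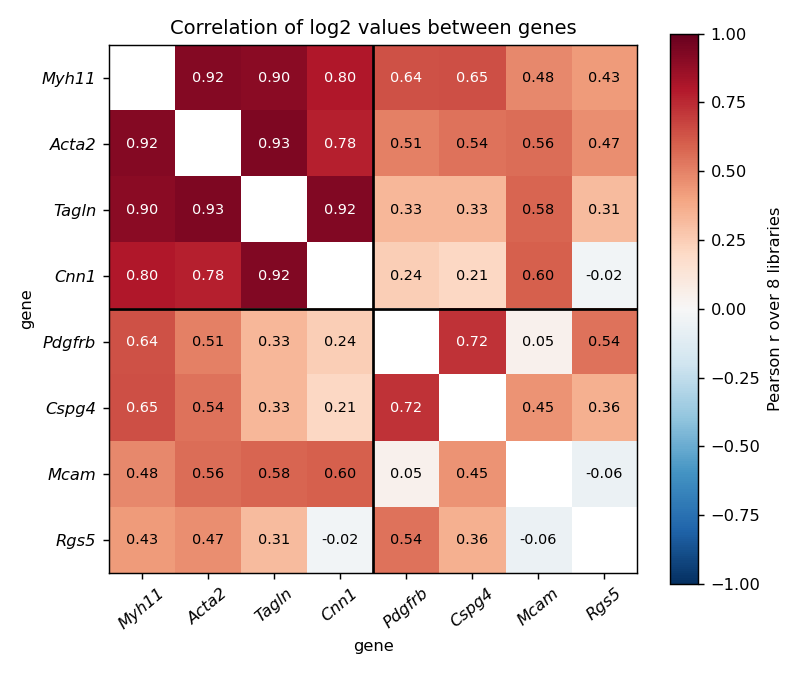
Pearson r over the 8 libraries between the log2 values of each pair of genes, with the lines separating contractile from pericyte genes. The contractile block holds 0.78 to 0.93, and the values between the blocks and within the pericyte block are lower and mixed.

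The list of smooth muscle contraction genes outside the members also holds genes that muscle fibres express, such as Tpm1, Tpm2, Synm and Nexn. Of 31 tested of 32 listed, 11 were above and 20 below 0 with a median of -0.026, and 0 passed limma's test, also at an unadjusted p under 0.05. Myl9, the smooth muscle regulatory light chain, had 439, 583, 604 and 782 normalized reads in CKM Cre replicates 1 to 4, against 715, 696, 660.0 and 549 in Loxp/Loxp replicates 1 to 4. CKM Cre replicate 1 was the lowest library and CKM Cre replicate 4 the highest, as for Acta2. Ppp1r14a, an inhibitor of myosin phosphatase, had 33.4 ± 8.21 in CKM Cre and 42.8 ± 5.62 in Loxp/Loxp libraries (SD, n = 4 each). Flna, an actin crosslinker, had 3416 ± 789 in CKM Cre and 3774 ± 347 in Loxp/Loxp libraries. Vcl, the adhesion protein vinculin, had 3134 ± 137 in CKM Cre and 3329 ± 167 in Loxp/Loxp libraries. Rock1, a kinase that sustains contraction, had 838 ± 64.1 in CKM Cre and 899 ± 46.6 in Loxp/Loxp libraries. The genes did not all follow 1 pattern across libraries: 9 of the 31 were lowest in CKM Cre replicate 1 and 13 were highest in CKM Cre replicate 4. Synm, an intermediate filament protein of muscle, ran the other way, with 45076, 45560, 37217 and 35762 in CKM Cre replicates 1 to 4, against 42683, 47346, 34017 and 42317 in Loxp/Loxp replicates 1 to 4. The mean deviation of the whole list had an r of 0.86 with that of the contractile members over the 8 libraries. Without the 2 most distant libraries it was 0.70. For the marker lists of other cell types, r over the 8 libraries ran from -0.36 (tendon) to 0.79 (satellite cell, 0.40 without the 2 most distant libraries). The actin and myosin family list, which includes the members, had 2 of 14 tested genes above and 12 below 0, with a median of -0.087.

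Of the transcription regulators of smooth muscle genes, 17 of 20 were tested, 8 above and 9 below 0, with a median of -0.017. An unadjusted limma p under 0.05 was reached by 1 of them, lower in CKM Cre, against 2.91% of all genes in either direction. Srf, serum response factor, had 1651 ± 43.2 normalized reads in CKM Cre and 1595 ± 129 in Loxp/Loxp libraries (SD, n = 4 each). Myocd, myocardin, was low in both, at 12.1 ± 8.18 in CKM Cre and 12.7 ± 9.18 in Loxp/Loxp libraries. Notch3, the mural cell Notch receptor, had 1086 ± 128 in CKM Cre and 1208 ± 190 in Loxp/Loxp libraries. Ebf1, a transcription factor that pericytes carry, had 560.0 ± 48.2 in CKM Cre and 646 ± 45.2 in Loxp/Loxp libraries (log2 difference -0.21, limma adjusted p = 0.9995).

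Receptors and channels that set vessel tone numbered 27 tested of 33, with 11 above and 16 below 0 and a median of -0.053, and none reached an unadjusted p under 0.05. Ednra, the endothelin receptor of smooth muscle, had 89.3 ± 11.0 in CKM Cre and 112 ± 20.8 in Loxp/Loxp libraries (SD, n = 4 each). Adra1a, an alpha-1 adrenergic receptor, had 79.6 ± 23.0 in CKM Cre and 111 ± 37.8 in Loxp/Loxp libraries. Ptger3, a prostaglandin E2 receptor, had 18.0 ± 2.17 in CKM Cre and 63.4 ± 71.8 in Loxp/Loxp libraries, where the SD exceeded the mean.

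The wider set of pericyte markers had 18 of 30 tested genes above and 12 below 0, with a median of 0.012. An unadjusted limma p under 0.05 was reached by 2, of which 1 was higher and 1 lower in CKM Cre, against 2.91% of all genes. This list also holds genes not particular to pericytes, such as Des, which is in the list of satellite cell markers too. Angpt1, the angiopoietin that pericytes send to endothelium, had 532, 592, 775 and 609.8 normalized reads in CKM Cre replicates 1 to 4, against 486, 439, 625 and 479 in Loxp/Loxp replicates 1 to 4. The CKM Cre libraries lay above 3 of the 4 Loxp/Loxp libraries, and the groups overlapped (log2 difference 0.30, limma adjusted p = 0.9995). Ebf1, given above with a lower mean in CKM Cre libraries, is also in this list. Among the signals between endothelium and mural cells, 14 of 33 genes were above and 19 below 0, with a median of -0.033. An unadjusted limma p under 0.05 was reached by 3, of which 1 was higher and 2 lower in CKM Cre, against 2.91% of all genes. Pdgfb, the ligand of Pdgfrb, had 528 ± 50.2 in CKM Cre and 551 ± 81.6 in Loxp/Loxp libraries (SD, n = 4 each).

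Jag1 and Edn1, an endothelial Notch ligand and the gene of the vasoconstrictor endothelin 1, had groups that did not overlap, as 1.92% of all genes tested had. They are the 2 such genes of the 33 in that list. Such genes also numbered 3 of 13 tested venous and lymphatic markers and 1 of 30 pericyte markers. They numbered 1 of 16 arterial markers (Jag1 again), 1 of 11 tendon markers and 1 of 11 satellite cell markers, and the other lists held none. Jag1 had 394 to 435 normalized reads in CKM Cre libraries, against 465 to 572 in Loxp/Loxp libraries (log2 difference -0.31, limma adjusted p = 0.9995). Edn1 had 28.6, 17.1, 20.6 and 35.4 in CKM Cre replicates 1 to 4, against 50.3, 50.4, 39.2 and 40.04 in Loxp/Loxp replicates 1 to 4 (log2 difference -0.84, limma adjusted p = 0.9995).

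Vessel content also includes endothelium. All 30 endothelial markers were tested, 10 above and 20 below 0, with a median of -0.055 and none at an unadjusted p under 0.05. Their summed level was 23061 to 30323 normalized reads in CKM Cre and 27073 to 30921 in Loxp/Loxp libraries. The mean deviation was -0.22 in CKM Cre replicate 1, the lowest of the 8 libraries, and it lay between -0.087 and 0.14 in the others. The arterial markers had 6 of 16 above and 10 below 0. The venous and lymphatic markers had 9 of 13 tested genes above and 4 below 0, with 4 at an unadjusted p under 0.05, all higher in CKM Cre libraries, against 2.91% of all genes in either direction. Their median of 0.17 was 0.057 without CKM Cre replicate 4 and 0.043 without Loxp/Loxp replicate 2. Some genes of this list are not particular to these vessels, such as Vcam1 and Lyve1, which are also in the satellite cell and macrophage lists. Flt4, a receptor of lymphatic growth signals, had 220.5 ± 19.97 in CKM Cre and 148 ± 16.9 in Loxp/Loxp libraries (SD, n = 4 each), with a limma adjusted p = 0.9995. Mmrn1, a multimerin of lymphatic vessels, had 196 ± 38.7 in CKM Cre and 103 ± 16.4 in Loxp/Loxp libraries.

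Markers of other cell types moved with the libraries, and their part in the results was not tested. Adipocyte markers had 0 of 11 tested genes above 0 and a median of -1.90, and their summed level was 731 to 1529 normalized reads in CKM Cre libraries, against 964 to 18447 in Loxp/Loxp libraries, with Loxp/Loxp replicates 2 and 3 high. Slow fibre markers had a median of 1.34, or -0.21 without CKM Cre replicates 3 and 4, and a summed level of 8368 to 38035 in CKM Cre and 6711 to 20289 in Loxp/Loxp libraries, with CKM Cre replicates 3 and 4 high. Tendon markers had 11 of 11 genes above 0, with a summed level of 10855 to 20238 in CKM Cre and 7945 to 13171 in Loxp/Loxp libraries. Fibroblast markers had 11 of 20 genes above 0 and macrophage markers 2 of 13, and both were lowest in CKM Cre replicate 2. Without Loxp/Loxp replicates 2 and 3 the log2 difference was -0.31 for Myh11, -0.083 for Acta2, -0.22 for Tagln and -0.67 for Cnn1. Without CKM Cre replicates 3 and 4, it was -0.52 for Myh11, -0.52 for Acta2, -0.61 for Tagln and -1.38 for Cnn1.

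**Figure D5:**
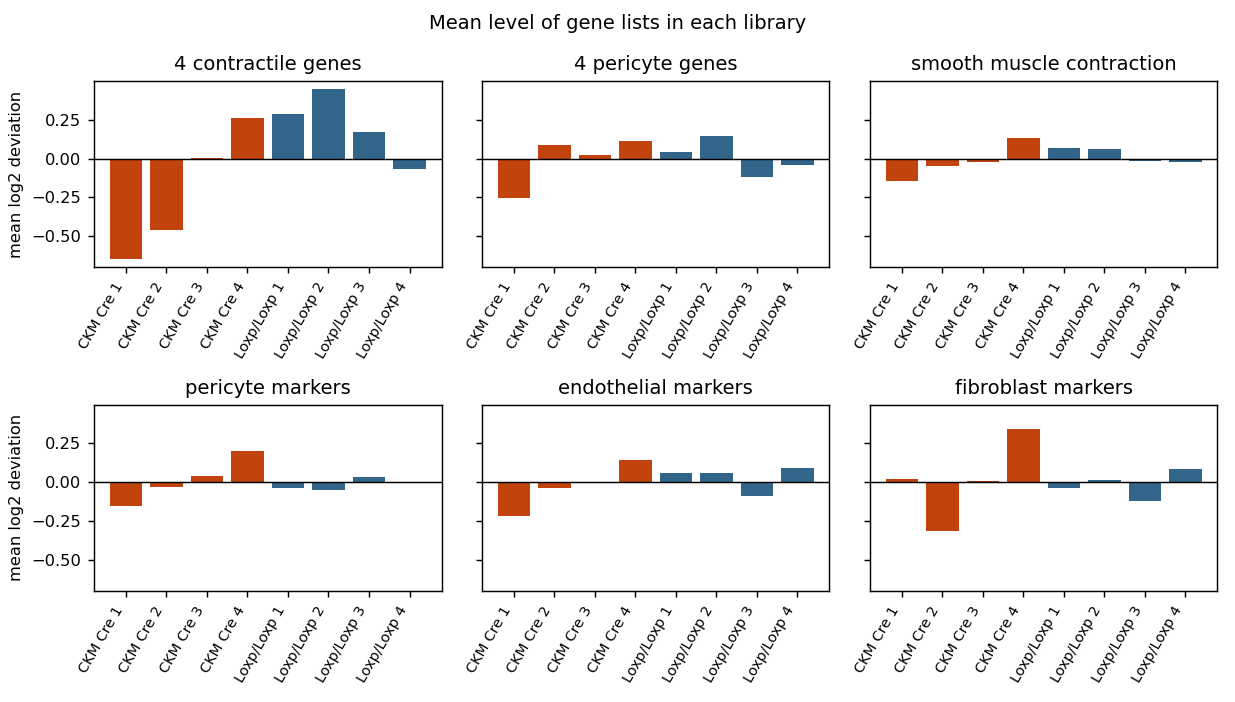
Bars give the mean log2 deviation, for the genes of each list, of each CKM Cre (orange) and Loxp/Loxp (blue) library from the mean over the 8 libraries. CKM Cre replicate 1 is low for the contractile, endothelial and pericyte lists.

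Over the 8 libraries, the genes outside the members whose log2 levels were most like the contractile mean were Slc25a5 (r = 0.97), Cldn15, Ctsh, Dok2, Sri, Diexf, P2ry12 and Traf5 (r = 0.92), and 12 genes had r above 0.9. P2ry12 had 8.52 ± 5.85 normalized reads in CKM Cre and 20.1 ± 6.66 in Loxp/Loxp libraries (SD, n = 4 each). For the pericyte mean they were Cpne8 (r = 0.93), Atf6b, Map3k5, Steap4 (r = 0.93), AW011738, Nucb2, Slc39a6 and Gm45670 (r = 0.91), and 10 genes had r above 0.9. Steap4, a metalloreductase that is also in the list of pericyte markers, had 1429 ± 164 in CKM Cre and 1502 ± 177 in Loxp/Loxp libraries. Without the 2 most distant libraries, r with the contractile mean was 0.51 (Dok2) to 0.91 (Slc25a5) for the 8 genes named. With the pericyte mean it was 0.53 (Gm45670) to 0.89 (Cpne8). The ranks were taken over 13638 genes on 8 points that share library scaling, and they are a description.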

How the data were processed

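The authors deposited 1 table of log2 values, found from the values to be log2(x + 1), where x is a gene's reads divided by 1 factor per library. Per the labels' protocols, RNA from a Norgen tissue kit was made into TruSeq stranded libraries. The submitters' processing notes list DESeq2, cutadapt, FastQC, STAR and HTSeq, without role or version, and the build GRCm38. Below 1000 reads, 100% of the values lay within 0.1 of a whole read, and reads recovered in this way gave the depth. Libraries of 1 group differed by a chi-square of 26.0 to 79.2 per gene, so each counted as 1 replicate, and the animal numbers point to separate mice. limma 3.58.1 in R 4.3.3, with trended variances, was run on 13638 genes, with Benjamini-Hochberg adjustment and a threshold of 0.05. The fit was tested on simulated data.

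The 8 genes and the lists were chosen with earlier results of these data known. The lists hold 358 entries for 324 genes, so a gene that is in more than 1 list counts in each. Named genes were the 8 members, genes among the 4 smallest unadjusted p in each list described and the 8 most like in pattern. Myl9, Synm, Tpm1, Tpm2, Nexn, Srf, Myocd and Pdgfb were added after their values were seen. Other settings tried were TMM scaling, quantile normalization, library weights, limma-voom, an animal-number block, pseudocounts of 0.5 and 10, looser and stricter filters (none, or a mean of 100) and leaving out replicates. Coordinates and exon lengths are from GENCODE M21 on GRCm38.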

Additional observations from a re-analysis of the deposited data

Results flagged for a closer look

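In Loxp/Loxp replicate 2, Mcam had 992 normalized reads, far from the other 3 libraries of its group (637 to 673), which is why it was flagged. It was 1 of 56 groups of 4 libraries examined, and chance flags about 1 in 20 such groups. The same library held the highest Tagln and Cnn1 levels, and its adipocyte markers were also the highest. Their part in the Mcam value was not tested.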

How the results depend on the processing

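In all 19 alternatives 2 genes and 0 of the 8 members passed limma's test, and the lowest adjusted p of any member was 0.8999. The median over the 4 contractile genes ran from -0.56 to -0.17. The contractile differences kept their sign: Myh11 -0.52 to -0.14, Acta2 -0.52 to -0.036, Tagln -0.61 to -0.20 and Cnn1 -1.38 to -0.61, with no value for Cnn1 under the filter on a mean of at least 100. The small pericyte differences did not, and the cause was not tested: Pdgfrb was -0.021 with library weights and -0.075 to 0.087 with libraries left out (-0.049 without CKM Cre replicate 4, -0.033 without Loxp/Loxp replicate 3, -0.075 without CKM Cre replicates 3 and 4 and -0.064 without Loxp/Loxp replicates 2 and 3). Cspg4 was -0.13 to 0.048 (0.048 and 0.0052 without CKM Cre replicates 1 and 3, 0.016 without Loxp/Loxp replicate 2), Mcam -0.20 to 0.040 (0.015 without Loxp/Loxp replicate 2, 0.040 without replicates 2 and 3), and Rgs5 -0.014 to 0.24, the lower without CKM Cre replicates 3 and 4. Without CKM Cre replicates 3 and 4 the median was -0.11 for pericyte markers (0.012 with all libraries), -0.12 for the RGS R4 family (0.069), -0.35 for Schwann cell markers (0.021), -0.21 for slow fibre markers (1.34) and 0.017 for venous and lymphatic markers (0.17), which had 0.043 without Loxp/Loxp replicate 2 and up to 0.27 without Loxp/Loxp replicate 4. Without Loxp/Loxp replicates 2 and 3, chosen after seeing the data as was the pair of CKM Cre replicates, adipocyte markers were at -0.23 (-1.90 with all libraries). Adjacent animal numbers form 4 pairs of a CKM Cre and a Loxp/Loxp mouse, but the labels do not say what adjacency means. The correlation of deviations within pairs was -0.081, 0.15, 0.19 and -0.083 over 13638 genes. Without the same value for other combinations of mice, this cannot decide whether the mice were paired. The main fit left the numbers out. In the fit with this pairing as a block, 0 members passed (lowest limma adjusted p = 0.9945), while the 4 contractile genes had an unadjusted p under 0.05, against 3.76% of all genes. Myh11, Tagln and Cnn1 were lower in the CKM Cre mouse in 4 of 4 pairs, as 5.70% of all genes were, and Acta2 in 3 of 4. The contractile genes varied together over the libraries, so these are not independent results.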

Other observations

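The Schwann cell and nerve markers had 8 of 13 tested genes above and 5 below 0, and their mean deviation was lowest in CKM Cre replicate 1 at -0.51. Satellite cell markers had 5 of 11 above 0 and fast glycolytic fibre markers 7 of 16, and the RGS R4 family, to which Rgs5 belongs, had 5 of 6 tested genes above 0.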
